A study of Caenorhabditis elegans with 33 samples.

Results

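The genes followed across the diets are the major sperm protein genes and other sperm genes of the nematode Caenorhabditis elegans. They were chosen by name alone: every gene symbol made of msp, ssp, nspd or spe, a hyphen and a number, together with fer-1. The rule found 42 of the 18811 genes in the deposited tables, namely 12 msp genes, 3 ssp genes, nspd-8, 25 spe genes and fer-1. RNA from whole animals was sequenced in 33 libraries, 3 for each of 11 bacterial diets. All animals were synchronized adults of the wild-type strain N2, and the groups differed in the bacteria they ate. The control diet was the E. coli laboratory strain BW25113. The remaining 10 diets were mutant bacteria, each named by the bacterial gene affected (crl, iaaA, purH, torY, yccU, ycdC, ycgJ, yghZ, yjgU and ypdF). By the series title, the study asked how genes of gut microbes bear on the social behavior of the host. The sex of the animals, their day of adulthood, the kind of bacterial mutation, the number of animals in a library and whether replicates were separate cultures were not stated in the labels used here. P-values therefore measure only the spread between these libraries, which may be technical. In whole-animal RNA, a smaller number of cells of a type and less RNA per cell cannot be told apart.

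In the C. elegans hermaphrodite, germ cells first form sperm during the last larval stage and then switch to oocytes, and the sperm are stored and used through early adulthood. The major sperm proteins, encoded by the msp genes, build the filaments on which the crawling nematode sperm moves and, after release, act as the signal for oocyte maturation and ovulation. The spe genes and fer-1 were mostly found as mutations that make otherwise healthy animals sterile through defective sperm. Their products act in turn: in setting the sperm program, in packing major sperm protein into fibrous bodies attached to membranous organelles, in the budding of spermatids, in the activation of spermatids into crawling sperm, in the meeting of sperm and egg, and in what the sperm brings to the embryo. Most of their transcripts are made in spermatocytes, since a mature sperm does not transcribe its genome.

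The 12 msp genes lie on chromosomes II and IV of the WBcel235 assembly (Ensembl release 115 annotation). 7 of them (msp-3, msp-31, msp-32, msp-45, msp-49, msp-50 and msp-152) lie on chromosome II between 4785898 and 5200180, and 5 (msp-19, msp-36, msp-38, msp-76 and msp-81) on chromosome IV between 5260589 and 10143740. Each is annotated as 1 exon, of 384 bases in 11 genes and 360 bases in msp-32. The annotation lists 31 msp genes, and the other members of the family were not analysed here. The near-identical copies share reads: all 12 msp genes had counts that were not whole numbers, which shows that reads were divided among genes. The summed count of the 12 genes was whole (within 0.05) in only 3 of 33 libraries, so part of these reads was shared with genes outside the 12, and the split between single msp genes is uncertain.

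Read sharing was narrower elsewhere. The counts of ssp-32 and ssp-36 summed to a whole number in 33 of 33 libraries, while ssp-32 alone was whole in 7, so this pair divided its reads between its members. The same held for spe-38 with impt-1 and for spe-27 with C06E7.88, their overlapping neighbors. The genes spe-5, spe-9, spe-15, spe-26, spe-29, spe-49 and msp-38 each overlap the annotated span of a coding gene on the opposite strand. Whether exons are shared was not examined, and the labels used here do not state strandedness. Reads from any shared exonic stretch could therefore not be told apart. The counts of these 6 spe genes were whole in all 33 libraries. The genes msp-31 and msp-45 overlap the span of a coding gene on the same strand, aagr-2 and srb-13. Strand would not separate reads from any exonic stretch shared there.

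Library totals ran from 20459806 to 22666691 expected counts. Levels are given as CPM, a gene's share of the library's counts scaled to a common depth, with library sizes adjusted by TMM (trimmed mean of M-values), whose factors ran from 0.661 to 1.90. In the text a gene passed the test when its adjusted p was under 0.05 in edgeR's quasi-likelihood test of a mutant diet against BW25113, with Benjamini-Hochberg adjustment over the 14696 genes tested. 41 of the 42 sperm genes were tested, and spe-29 fell below the filter on low counts. One library stood apart: purH replicate 1 had the lowest summed level of 15 oocyte genes (4354 CPM, against 11174 and 21910 in the other purH libraries) and of 6 yolk genes (6469 CPM, against 43246 and 78357).

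Most msp genes were more abundant than any other gene of the set. To compare genes per unit of length, the deposited TPM values, which are scaled for transcript length, were averaged over the 33 libraries. On this scale msp-19 stood highest at 2196 TPM, rank 104 among all genes, with a range from 98.8 in ypdF replicate 1 to 5460 in torY replicate 3. It was followed by msp-81 at 844 TPM, msp-76 at 532, msp-45 at 495 and msp-152 at 476. At the low end, msp-49 averaged 76.0 TPM, msp-50 73.3 and msp-32, with 3 libraries at 0, 2.98. Among the other families, ssp-37 averaged 72.1 TPM, near msp-49 and msp-50, nspd-8 25.5, ssp-32 2.16 and ssp-36 1.90. The 3 spe genes with the highest means were spe-39 at 15.0 TPM, spe-48 at 12.9 and spe-44 at 7.01, and fer-1 averaged 0.233 TPM.

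The share of each msp gene in the msp sum was also followed across the libraries. The gene msp-19 supplied between 30.6% of the summed msp CPM, in purH replicate 1, and 42.5%, in BW25113 replicate 2, with a median of 38.3%. Its mean share was 38.1% ± 0.760 in the 3 libraries of torY, beside 40.9% ± 2.33 in the 3 of BW25113 (SD). Next came msp-81, with a median share of 14.3% and a range from 13.0% to 17.9%. Other members varied more for their size: msp-152 from 6.39% to 13.1%, msp-38 from 5.11% to 9.39%, msp-50 from 0.868% to 2.02% and msp-32 from 0% to 0.182%. Because reads are divided among near-identical copies, these shares also carry the rule by which the reads were divided.

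**Figure D1:**
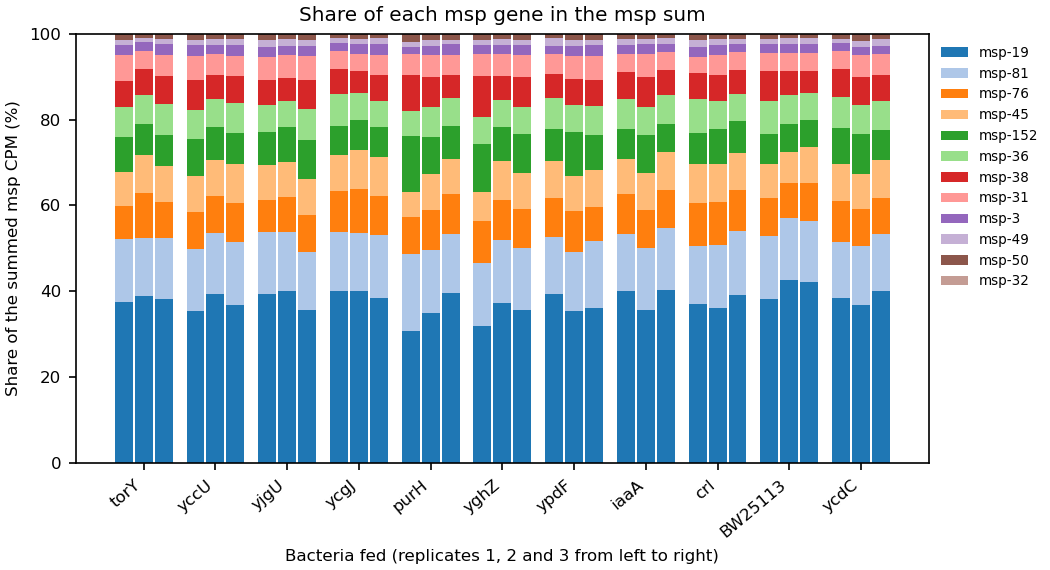
Share of each of the 12 msp genes in the summed msp CPM (vertical axis, percent), with 1 stacked bar per library grouped by diet. The lowest segment, msp-19, stays between 30.6% and 42.5% in all 33 libraries.

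The summed level of the 12 msp genes differed most from the control in worms fed torY and yccU. The 3 BW25113 libraries held 796, 639 and 1128 CPM. Those of torY held 7057, 4278 and 5018 CPM, and those of yccU 5613, 3777 and 4968 CPM. Every library of both mutant diets lay above every BW25113 library, and the ranges of torY and yccU overlapped each other. As means the sums were 5451 ± 1440 CPM (torY), 4786 ± 931 (yccU) and 854 ± 250 (BW25113; SD, n = 3 each), which is 6.38 and 5.602 times the control. Without TMM scaling the order stayed: the msp genes took 0.466%, 0.498% and 0.513% of all counts in the torY libraries, 0.574%, 0.303% and 0.522% in yccU, and 0.0610%, 0.0467% and 0.0970% in BW25113.

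Worms fed yjgU came next. Their libraries held 3480, 2106 and 2480 CPM of msp transcripts, again all above the control, with a mean of 2689 ± 710 CPM (SD, n = 3) or 3.15 times BW25113. Along the order of the 11 diet means, the only neighbors whose libraries did not overlap were yccU and yjgU. Of the 55 pairs of diets, 20 did not overlap in summed msp level. At the bottom of the order, ycdC held 121, 696 and 877 CPM, a mean of 565 ± 394, which overlapped BW25113.

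**Figure D2:**
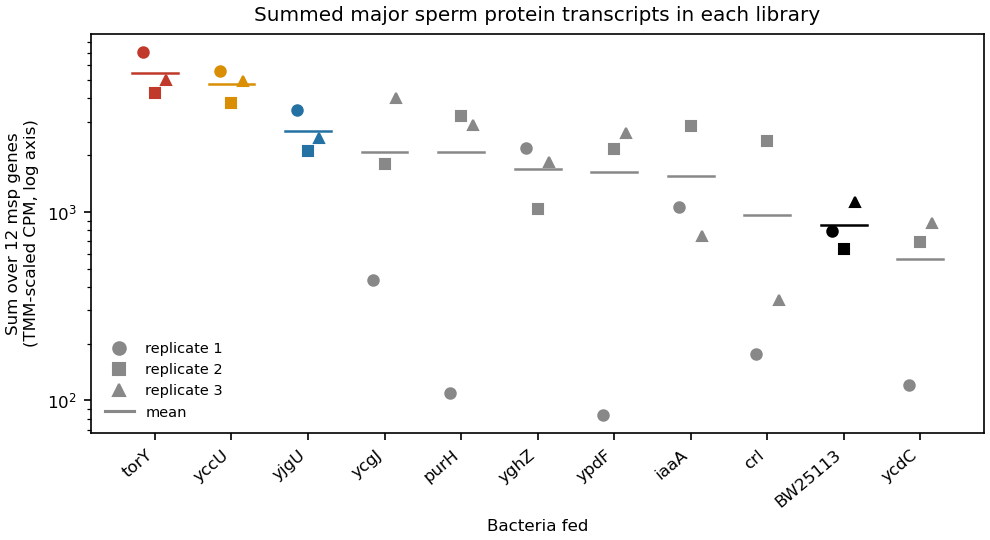
Sum of the 12 msp genes in each library (TMM-scaled CPM, log axis), by diet in the order of the diet means (lines), with marker shape giving the replicate number. The torY libraries (4278 to 7057 CPM) and yccU libraries (3777 to 5613 CPM) lie above all BW25113 libraries (639 to 1128 CPM), while ypdF, purH and crl each spread over more than a factor of 10.

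In several of the remaining diets the replicates disagreed widely in their msp transcripts. The purH libraries held 109, 3223 and 2885 CPM, a highest value 29.5 times the lowest. Those of ypdF held 84.2, 2146 and 2629 CPM, a 31.2-fold range, and those of crl 177, 2366 and 339 CPM, a 13.4-fold range. In all 3 diets replicate 1 was the lowest, and in crl a single library was high. The ycgJ libraries (438, 1802 and 4015 CPM) spanned 9.17-fold and the ycdC libraries 7.22-fold, against 1.77-fold in BW25113, 1.65-fold in torY, 1.49-fold in yccU and 1.65-fold in yjgU. The iaaA libraries held 1059, 2840 and 743 CPM, a 3.82-fold range. Those of yghZ were closer together, at 2192, 1042 and 1847 CPM, a 2.10-fold range. Over all 33 libraries the sum ranged 83.9-fold, from ypdF replicate 1 to torY replicate 1.

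In purH, ypdF, crl, ycgJ, ycdC and iaaA this spread was well above that of an average gene. The median standard deviation of log2 CPM between replicates was 2.82 over the 12 msp genes in purH and 0.69 over all genes tested. It was 2.80 against 0.57 in ypdF and 1.93 against 0.50 in crl. In ycgJ it was 1.63 against 0.53, in ycdC 1.56 against 0.62 and in iaaA 1.07 against 0.42. In torY it was 0.44 over the msp genes and 0.40 over all genes, and in yghZ 0.59 and 0.53. Markers of other cells and stages differed between the same replicates. In ypdF, summed embryo genes stood at 49.2, 16.5 and 18.9 CPM in replicates 1, 2 and 3, and summed oocyte genes at 20935, 8301 and 25098 CPM. In crl the embryo sums were 41.7, 20.2 and 31.3 CPM and the oocyte sums 26825, 11524 and 20780 CPM. Whether these differences bear on the msp levels was not tested.

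Against BW25113, 11 of 41 sperm genes rose in worms fed torY and 0 fell; of all genes tested, 14.9% passed in either direction and 9.66% rose. The 11 were msp-32, ssp-32, fer-1, spe-4, spe-6, spe-15, spe-19, spe-41, spe-42, spe-46 and spe-47. In 35 of the 41 genes the 3 torY libraries lay above the 3 BW25113 libraries, against 25.5% of all genes tested, and in 0 they lay wholly below (21.7% of all genes). The median log2 fold change was 2.73 over the 41 genes and 0.01 over all genes tested. At an unadjusted p under 0.05, 33 of the 41 passed, against 36.5% of all genes. The number that passed depended on single libraries: it was 2, 0 and 3 without BW25113 replicates 1, 2 and 3, it was 1, 9 and 0 without torY replicates 1, 2 and 3, and it was 25 without purH replicate 1. The share of all genes passing moved too, to 4.98%, 0% and 3.86% without the BW25113 replicates in that order, 3.56%, 14.2% and 1.02% without those of torY, and 19.6% without purH replicate 1.

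**Figure D3:**
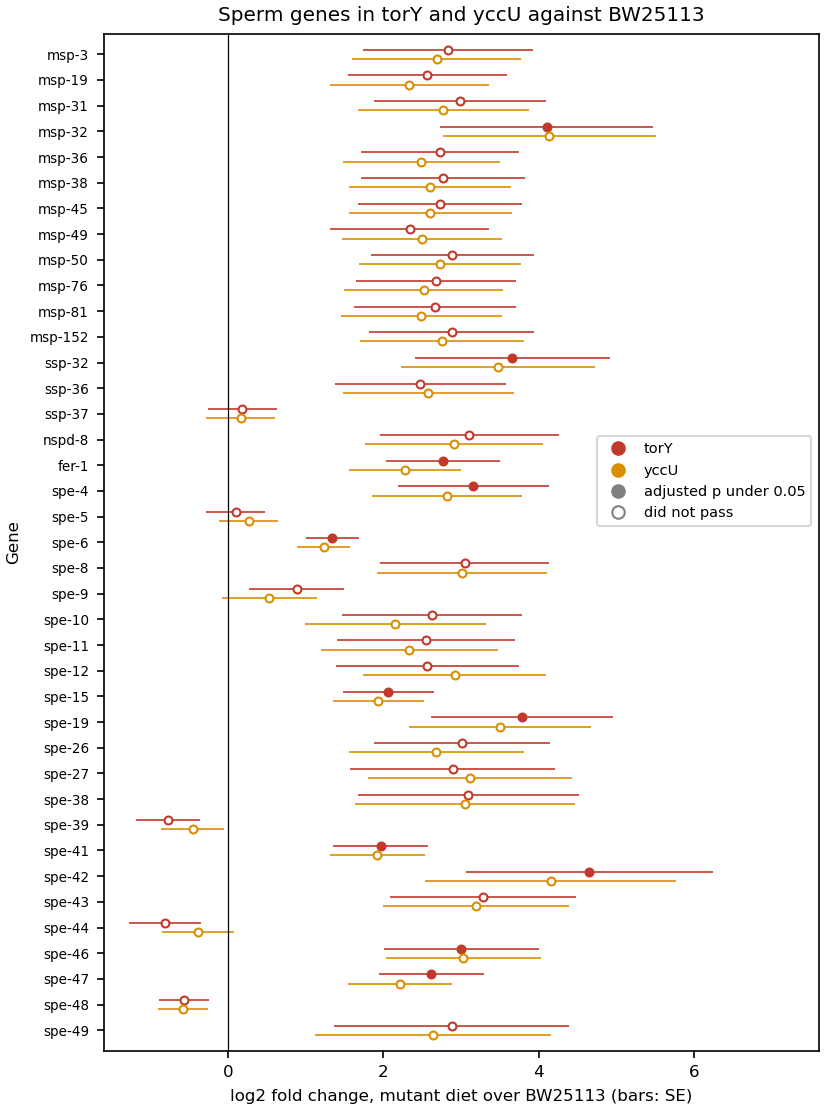
Log2 fold change (horizontal axis, bars are SE) of 39 tested sperm genes in torY and yccU against BW25113, with filled points for an adjusted p under 0.05. In both diets 36 of 39 points lie to the right of 0, spe-39, spe-44 and spe-48 lie to the left, and the 11 filled points are all torY.

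The abundant msp genes moved together but mostly missed the threshold. For msp-19 (chromosome IV, 5260589 to 5260972), the BW25113 libraries held 305, 272 and 474 CPM and the torY libraries 2638, 1664 and 1910 CPM. The groups did not overlap (log2 fold change 2.56, SE 1.03, adjusted p = 0.0782 in edgeR's quasi-likelihood test). The second most abundant, msp-81, held 116, 92.6 and 161 CPM in BW25113 and 1046, 580 and 714 CPM in torY (log2 fold change 2.66). All 12 msp genes were higher without overlap in torY (25.5% of all genes), with log2 fold changes between 2.34 in msp-49 and 4.10 in msp-32. The share of all genes that rose in torY was 9.66%. Only msp-32 passed (SE 1.37, adjusted p = 0.0451), from 0.291, 0.0613 and 0.103 CPM in BW25113 to 3.59, 1.70 and 2.80 CPM in torY. This gene (chromosome II, 4898829 to 4899188) is also the least abundant msp gene and shares reads with its relatives. The other 11 had adjusted p between 0.0575 and 0.102 in edgeR's test. Without purH replicate 1 in the fit, 11 of the 12 passed (19.6% of all genes), and in a fit of the 6 libraries alone 12 of 12 (29.5% of all genes).

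The small sperm families did not behave as 1 group. The ssp genes encode sperm-specific proteins with a domain like that of the major sperm proteins. Of these, ssp-32 rose in torY, from 0.175, 0.0613 and 0.362 CPM to 2.97, 1.89 and 3.02 CPM (log2 fold change 3.66, SE 1.25, adjusted p = 0.0489 in edgeR's test). Its read-sharing partner ssp-36 had a log2 fold change of 2.47 and did not pass (adjusted p = 0.107). In contrast, ssp-37 (chromosome I, 12561040 to 12561560) held 43.4, 44.2 and 23.1 CPM in BW25113 and 58.5, 33.0 and 34.4 CPM in torY. These groups overlapped and the log2 fold change was 0.18 (SE 0.45), a value that turned negative without BW25113 replicate 3 or torY replicate 1. The gene nspd-8 (chromosome I, 2551375 to 2551590), of a nematode-specific peptide family, held 0.641, 0.858 and 2.38 CPM in BW25113 and 15.0, 7.89 and 10.8 CPM in torY. The groups did not overlap, but nspd-8 did not pass (log2 fold change 3.10, SE 1.15, adjusted p = 0.0616).

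At the start of the sperm program, spe-44 encodes a transcription factor that turns on many sperm genes. It did not rise in any diet. Its levels were 9.62, 18.8 and 17.1 CPM in BW25113 and 9.12, 5.80 and 11.1 CPM in torY. The groups overlapped, and the log2 fold change was -0.81 (SE 0.47, adjusted p = 0.204 in edgeR's test). In yccU it was -0.39 (adjusted p = 0.581).

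Genes that act in fibrous bodies and membranous organelles were mixed. Among them 2 of the 5 tested rose in torY (9.66% of all genes). These were spe-4, encoding a presenilin-like protein of the membranous organelle, and spe-6, encoding a casein kinase 1-like protein needed for fibrous body assembly. The level of spe-4 went from 0.291, 0.306 and 0.775 CPM in BW25113 to 3.59, 2.98 and 5.92 CPM in torY (log2 fold change 3.16, SE 0.98, adjusted p = 0.0355 in edgeR's test). That of spe-6 (chromosome III, 11505488 to 11508930) went from 2.39, 2.27 and 2.22 CPM to 5.25, 5.76 and 6.44 CPM (log2 fold change 1.34, SE 0.34, adjusted p = 0.0195). The change in spe-6 was smaller than in spe-4 but its replicates were the tighter of the pair. The palmitoyltransferase gene spe-10 did not pass, with a log2 fold change of 2.63 and an adjusted p of 0.105. By contrast, spe-39, which acts in vesicle traffic in many tissues, held 18.9, 28.1 and 41.3 CPM in BW25113 and 14.6, 16.2 and 20.9 CPM in torY. Its groups overlapped (log2 fold change -0.77, SE 0.41, adjusted p = 0.171).

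The level of spe-6 was also compared outside torY, where it did not pass the test in any diet. In 9 of the 10 mutant diets, all except purH, every library lay above the 3 BW25113 libraries, which held between 2.22 and 2.39 CPM. Across those 9 diets the levels ran from 2.41 CPM in ycdC replicate 3, just above the highest control, to 6.66 CPM in yccU replicate 1. How many of all genes tested lay above the same 3 control libraries in as many diets was not counted. All of these comparisons share the same 3 control libraries. In none of them but torY did spe-6 pass the test, and the closest was yccU with 6.66, 3.28 and 6.19 CPM (log2 fold change 1.23, SE 0.34, adjusted p = 0.05004, just above the threshold).

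Among genes of spermatid budding, spe-15, the gene of a myosin VI motor, rose in torY. Its levels were 3.21, 3.13 and 5.99 CPM in BW25113 and 19.5, 12.8 and 19.3 CPM in torY (log2 fold change 2.06, SE 0.59, adjusted p = 0.0269 in edgeR's test). The kelch-repeat gene spe-26 did not pass, at a log2 fold change of 3.01 and an adjusted p of 0.0641. It held 0.0583, 0.245 and 0.465 CPM in BW25113 and 1.31, 2.82 and 2.23 CPM in torY, without overlap.

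Activation of spermatids depends in hermaphrodites on a set of genes that act with the tyrosine kinase gene spe-8. All 5 tested members were higher in torY without overlap (25.5% of all genes), and 1 rose (9.66% of all genes). That was spe-19, which held 0.117, 0.0613 and 0.207 CPM in BW25113 and 1.52, 1.70 and 2.37 CPM in torY (log2 fold change 3.78, SE 1.17, adjusted p = 0.0358 in edgeR's test). Log2 fold changes of 3.04 in spe-8, 2.57 in spe-12 and 3.28 in spe-43 did not pass, with adjusted p from 0.0551 to 0.116. The untested spe-29 had 9 counts over the torY libraries and 1 over those of BW25113, a ratio of 7.53 per effective library size (95% exact interval 1.04 to 329.9, counting error only). For spe-27, which had 3 counts in BW25113 and 30 in torY and did not pass, the ratio was 8.36 (2.60 to 42.8). A pair of further genes, spe-46 and spe-47, whose mutants alter activation, rose as well. The levels of spe-46 were 0.408, 0.490 and 1.24 CPM in BW25113 and 4.70, 4.91 and 7.76 CPM in torY (log2 fold change 3.00, SE 0.99, adjusted p = 0.0435). Those of spe-47 (chromosome I, 2617529 to 2620430) were 2.10, 1.23 and 0.827 CPM in BW25113 and 9.95, 5.72 and 9.86 CPM in torY (log2 fold change 2.62, SE 0.67, adjusted p = 0.0196).

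The ferlin gene fer-1 (chromosome I, 8623012 to 8631202, 21 exons) is needed for membranous organelles to fuse with the cell surface during activation. It held 0.350, 0.735 and 1.14 CPM in BW25113 and 7.18, 1.86 and 6.31 CPM in torY. The groups did not overlap, although torY replicate 2 stood well under the other torY libraries. The log2 fold change was 2.77 (SE 0.73, adjusted p = 0.0214 in edgeR's test). In yccU replicate 2 was again the lowest of 3, at 1.33 CPM beside 4.97 and 4.57. Elsewhere fer-1 ranged from 0.184 CPM in ypdF replicate 1 to 3.01 CPM in purH replicate 2.

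The summed level of the 6 activation genes followed the msp sum over a wide range. It was 0.641, 0.552 and 1.498 CPM in BW25113, 6.49, 6.69 and 11.1 CPM in torY, 10.3, 3.50 and 10.7 CPM in yccU, and between 1.64 and 3.86 CPM in yjgU. Both mutant diets with the highest msp sums lay wholly above the control here as well, and so did yjgU. Over all libraries the activation sum ran from 0.0461 CPM in ypdF replicate 1 to 11.1 CPM in torY replicate 3. The ratio of msp to activation CPM was 1051 ± 262 in BW25113, 726 ± 327 in torY and 697 ± 334 in yccU (SD, n = 3 each), with overlapping ranges.

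**Figure D4:**
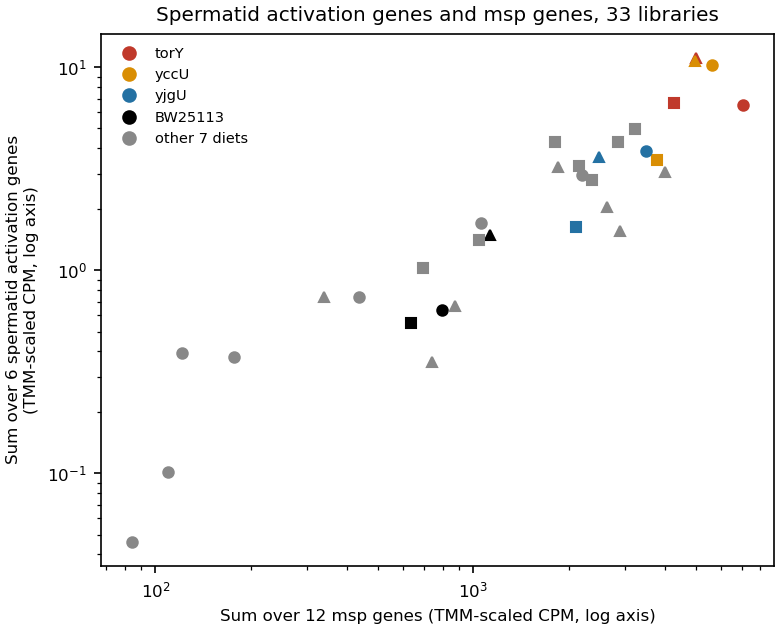
Summed CPM of 6 spermatid activation genes (vertical, log axis) against summed CPM of the 12 msp genes (horizontal, log axis), 1 point per library, colored by diet. The lowest point on both axes is ypdF replicate 1 (0.0461 and 84.2 CPM), and the torY and yccU libraries lie at the upper right.

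Among genes for the meeting of sperm and egg, spe-42 rose in torY. It encodes a membrane protein related to DC-STAMP and had 38 counts over the 3 torY libraries and 1 over those of BW25113. The ratio was 31.8 (95% exact interval 5.37 to 1288, counting error only), with an adjusted p of 0.0485 in edgeR's test. Its relative spe-49 had 28 counts in torY and 3 in BW25113, a ratio of 7.81 (2.41 to 40.1), and did not pass. The tetraspan gene spe-38 did not pass at a log2 fold change of 3.09 (adjusted p = 0.117). The EGF-repeat gene spe-9 had a smaller log2 fold change of 0.88 (SE 0.61) and did not pass. It held 0.466, 0.490 and 0.310 CPM in BW25113 and 0.622, 0.619 and 1.10 CPM in torY, without overlap. The cation channel gene spe-41, also known as trp-3, which sperm need for fertilization, rose from 0.758, 0.674 and 1.96 CPM to 4.28, 2.94 and 6.18 CPM (log2 fold change 1.97, SE 0.61, adjusted p = 0.0361). The paternal factor gene spe-11, whose product the sperm delivers to the embryo, held 0.466, 0.429 and 1.55 CPM in BW25113 and 4.01, 7.96 and 2.50 CPM in torY. Its groups did not overlap, and it did not pass (log2 fold change 2.55, SE 1.15, adjusted p = 0.111).

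A few spe genes were not higher in torY. The gene spe-5, which encodes a subunit of the vacuolar proton pump, held 3.03, 4.35 and 3.98 CPM in BW25113 and 1.45, 5.10 and 5.52 CPM in torY. These overlapped, at a log2 fold change of 0.10 (SE 0.38), and its sign changed when replicate 1 of BW25113 or replicate 2 or 3 of torY was left out. For spe-48, the levels were 16.7, 15.4 and 19.7 CPM in BW25113 and 8.22, 17.9 and 8.85 CPM in torY. The log2 fold change was -0.57 (SE 0.32, adjusted p = 0.198 in edgeR's test). Without torY replicate 2 it was -1.02, and spe-48 then passed (adjusted p = 0.0453). The spe genes that did not follow the msp genes include the 3 with the highest mean TPM, spe-39, spe-48 and spe-44. For this reason the summed CPM of all spe genes with fer-1 changed far less than the msp sum, from 79.6 ± 20.5 CPM in BW25113 to 114 ± 14.7 in torY (SD, n = 3 each).

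**Figure D5:**
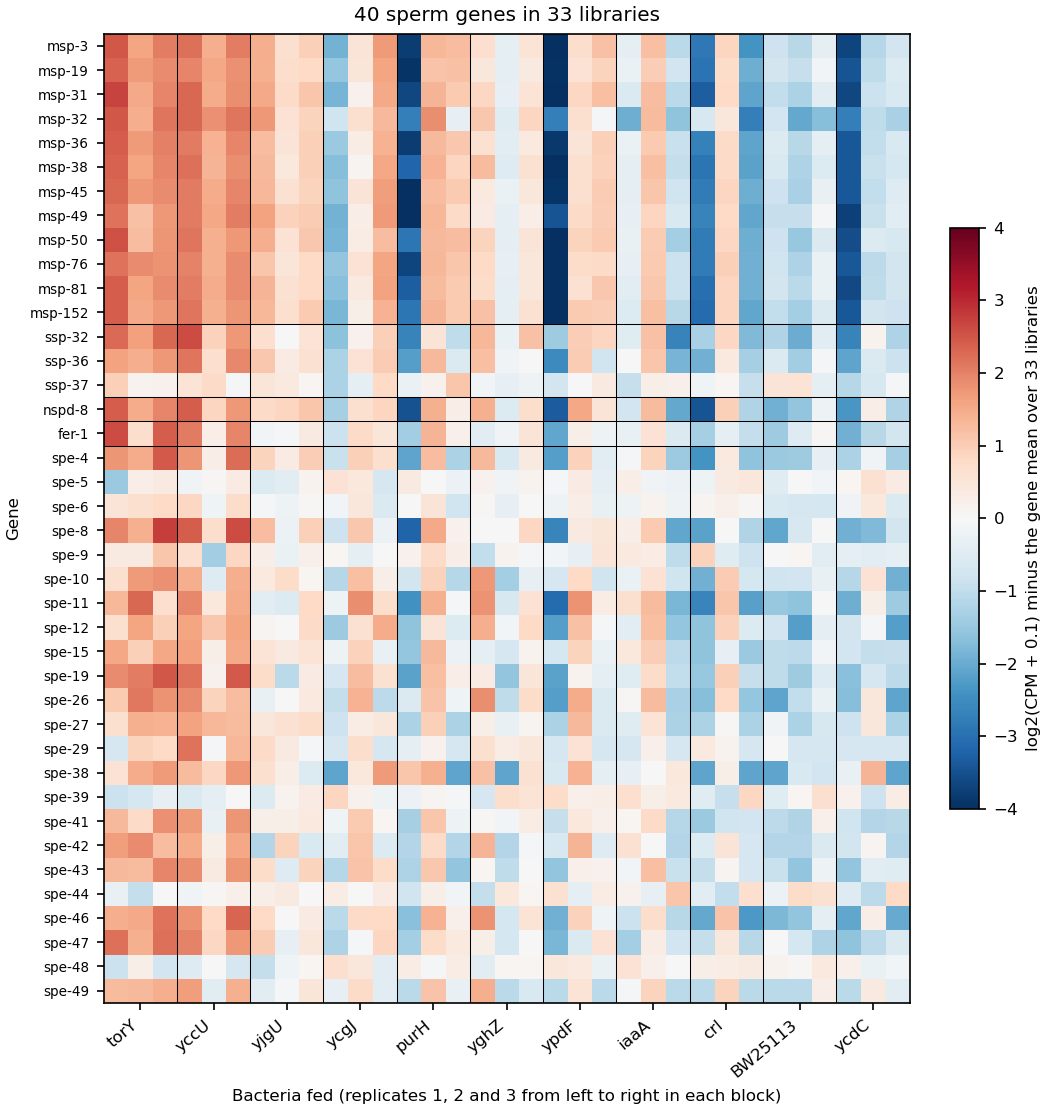
Level of each of 40 sperm genes (rows) in each library (columns, replicates 1 to 3 within a diet), as log2(CPM + 0.1) minus the mean of the gene over 33 libraries. The msp rows change together across columns, while spe-5, spe-39, spe-44 and spe-48 show little of that pattern.

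The same division appears across all 33 libraries. Pearson's r of log2 CPM with msp-19 ran from 0.877 to 0.998 over the other 11 msp genes, with a median of 0.993. High values outside the family were those of nspd-8 (0.928), ssp-36 (0.906) and spe-8 (0.888). At the other end stood spe-48 (-0.553), spe-39 (-0.357), spe-5 (-0.294) and spe-44 (-0.0417). These are descriptions over libraries that share their depth and scaling, and the msp genes also share reads.

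In worms fed yccU the fold changes were close to those in torY, but no sperm gene passed: 0 of 41 in edgeR's test, against 2.62% of all genes, with 32 of 41 at an unadjusted p under 0.05 (26.9% of all genes) and 13 of 41 by DESeq2. In 32 genes the yccU libraries lay above the control without overlap (19.2% of all genes), and in 1, spe-48, below it (15.2% of all genes). The median log2 fold change of the 41 genes was 2.60, beside -0.01 over all genes. The comparisons of torY and yccU share their 3 control libraries. For the most abundant gene, msp-19, the yccU libraries held 1989, 1482 and 1827 CPM (log2 fold change 2.33, SE 1.02, adjusted p = 0.146 in edgeR's test). For spe-47 they held 8.39, 3.72 and 7.09 CPM (log2 fold change 2.21, SE 0.67, adjusted p = 0.0586). For nspd-8 they held 15.0, 5.00 and 9.31 CPM (log2 fold change 2.91). Replicate 2 was the lowest of the 3 in each of these genes. Without it 11 of 41 passed (14.5% of all genes), and without purH replicate 1 the number was 9 (6.71% of all genes). Without any other library of the comparison it was 0, and 0% of all genes passed in those fits.

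In yjgU no sperm gene passed edgeR's test, with 1 (msp-32) at an unadjusted p under 0.05, 0 by DESeq2 and 0% of all genes passing (6.49% of all genes at that unadjusted p). In 25 of 41 genes, however, the libraries lay above BW25113 without overlap (15.1% of all genes), among them all 12 msp genes, and in 0 below them (10.2% of all genes). The gene msp-19 held 1365, 841 and 883 CPM in yjgU, and the median log2 fold change of the 41 genes was 1.57, beside -0.08 over all genes. A fit of the 6 yjgU and BW25113 libraries alone called 14 of the 30 sperm genes it could test (4.44% of all genes), including 12 of 12 msp genes.

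None of the 41 genes passed in the other 7 diets, in edgeR's test or by DESeq2. Of all 14696 genes tested, 0 passed in edgeR's test in each of these diets. By DESeq2 the number over all genes was 3 in purH, 1 in crl, 1 in ycgJ and 0 in iaaA, ycdC, yghZ and ypdF. At an unadjusted p under 0.05 in edgeR's test, spe-6 passed in crl and spe-46 in yghZ. No other of the 41 genes did so in these 7 diets. Of all genes tested, the share at that level was 1.02% in crl, 1.12% in iaaA, 7.17% in purH, 4.64% in ycdC, 4.74% in ycgJ, 6.71% in yghZ and 1.32% in ypdF. With a replicate block in edgeR's test, 6 of the 41 passed at an unadjusted p under 0.05 in yghZ (1220 of 14696 genes). In yghZ, 9 genes were higher than BW25113 without overlap (9.05% of all genes), 6 of them msp genes. In the remaining diets that number was 1 in crl (5.07% of all genes), 2 in iaaA (2.47%), 1 in purH (5.93%), 2 in ycdC (5.93%), 2 in ycgJ (5.74%) and 2 in ypdF (1.63%). None of the 41 genes was lower without overlap in these 7 diets, against 2.82% of all genes in crl, 2.25% in iaaA, 5.59% in purH, 2.03% in ycdC, 3.48% in ycgJ, 5.82% in yghZ and 1.33% in ypdF. The median log2 fold change of the 41 genes was 1.29 in ycgJ, 1.23 in purH (0.18 over all genes), 1.12 in yghZ, 0.96 in iaaA, 0.91 in ypdF, 0.32 in crl and -0.22 in ycdC. In a test for any difference among the 11 diets, 2 of 41 genes passed, against 3.16% of all genes tested. They were fer-1 (adjusted p = 0.0154, edgeR's quasi-likelihood F test) and spe-47 (adjusted p = 0.0180). Without torY replicate 1 or 3, or without yccU replicate 1, neither passed, and without yccU replicate 3 the count was 1. Over all genes, 465 passed as reported and 157, 195, 224 and 226 in these 4 fits. The count was 4 without crl, iaaA or yccU replicate 2 (659, 494 and 995 of all genes). Without purH replicate 1 or 2 it was 5 (724 and 926 of all genes).

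Sperm genes with other names were followed as a further list. Of 28 listed, 23 were tested under these names. In torY 13 rose (9.66% of all genes) and 1 fell (773 of 14696 genes), with a median log2 fold change of 3.15. In yccU 1 rose (2.50% of all genes) and 0 fell (18 of 14696 genes), with a median of 2.90. All but fog-1, elt-1 and cpb-1 had positive log2 fold changes in both diets. Their summed CPM was 226, 215 and 391.9 in BW25113, 2463, 1237 and 1653 in torY and 1901, 852 and 1596 in yccU. Both mutant diets lay wholly above BW25113 and overlapped each other. The sperm chromatin gene spch-3, the most abundant of them by TPM, held 20.9, 18.9 and 45.3 CPM in BW25113 and 452, 210.4 and 316 CPM in torY (log2 fold change 3.52, SE 1.15, adjusted p = 0.0416 in edgeR's test). The Argonaute genes alg-3 and alg-4, which act with small RNAs in spermatogenesis, rose with log2 fold changes of 3.51 and 3.44. The toxin gene peel-1, which is expressed in sperm, rose in both diets, from 0.0583, 0 and 0.103 CPM in BW25113 to 1.80, 1.39 and 2.54 CPM in torY and 2.09, 0.777 and 2.18 CPM in yccU. Its adjusted p was 0.0192 and 0.0428, and it was the only listed gene that passed in yccU. Also higher in torY and past the test were spch-1, spch-2, ssq-3, ssq-4, sss-1, smz-1, htas-1 and snf-10, the last listed at 0 in all BW25113 libraries. The third in abundance, ssq-2, did not pass (log2 fold change 2.84, adjusted p = 0.0644).

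The sperm fate genes fog-1 and fog-3 moved in opposite directions in torY. Both fog-1 and fog-3 are required for germ cells to become sperm. In torY, fog-3 rose from 0.175, 0.184 and 0.362 CPM to 1.52, 1.39 and 1.93 CPM (log2 fold change 2.71, SE 0.81, adjusted p = 0.0317 in edgeR's test). By contrast, fog-1 fell from 15.2, 21.6 and 27.3 CPM to 8.08, 5.84 and 8.33 CPM (log2 fold change -1.53, SE 0.51, adjusted p = 0.0449). Of the other listed genes, elt-1 had a log2 fold change of -1.28 in torY and -0.66 in yccU. That of cpb-1 was -0.52 and -0.91. Neither passed in either diet, and both were chosen after their values were seen.

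Other marker lists also differed from BW25113 in the torY and yccU libraries, some upward and some downward. Of 19 genes of the larval cuticle and molting, 14 rose in torY and 10 in yccU. Of all 14696 genes tested, 9.66% rose and 773 genes fell in torY, and 2.50% rose and 18 genes fell in yccU. Their summed CPM was 292, 216 and 199 in BW25113, 3057, 1039 and 2338 in torY and 2057, 341 and 1953 in yccU. The yccU library with the lowest cuticle sum, replicate 2, also had the lowest msp sum of its diet. In yjgU the cuticle sum was 529, 265 and 261 CPM, which overlapped BW25113, and 0 of the 19 genes passed. Of 8 tested embryo genes, 4 fell in torY and 1 in yccU. Sums over 10 embryo genes lay between 30.3 and 43.8 CPM in BW25113, 9.77 and 12.9 in torY and 11.0 and 19.8 in yccU. The largest part of the BW25113 sum was ztf-11, with a mean of 21.1 of 38.2 CPM, and 3.18 CPM in torY. In torY nob-1 overlapped BW25113 (log2 fold change -0.10). Of 15 oocyte genes, 2 fell in torY, with sums of 8495 to 14894 CPM beside 21292 to 28346 in BW25113, and 0 of 15 passed in yccU (7456 to 18255 CPM). Of 6 yolk genes 0 passed in either diet, although their sums lay wholly below BW25113 (75427 to 100212 CPM) in both, at 26989 to 52172 CPM in torY and 24663 to 57330 CPM in yccU. At an unadjusted p under 0.05 in edgeR's test, vit-1, vit-3, vit-4 and vit-5 passed in torY (36.5% of all genes) and vit-5 in yccU (26.9%). The part of stage and germline differences in the sperm gene levels was not tested.

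Most markers of males were at or near 0. Over 10 male genes the summed level was 0.583 to 0.919 CPM in BW25113, 1.93 to 3.59 in torY and 0.444 to 2.78 in yccU. In torY the sum came mostly from mab-3, at 1.28 to 2.76 CPM, the 1 male gene that could be tested, which rose (log2 fold change 2.78). The male neuron genes lov-1, cwp-1 and cwp-2 and the mating plug gene plg-1 were at 0 in all torY and all BW25113 libraries. The polycystin gene pkd-2 reached 0.0387 CPM in 1 torY library and was at 0 in BW25113, and cwp-3 was at 0 in torY. Of the other 3 male genes, cwp-4, cwp-5 and try-5, none exceeded 0.520 CPM in any of the 33 libraries.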

How the data were processed

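Per the labels, total RNA was extracted from whole synchronized adults with Trizol and sequenced on a DNBSEQ instrument. The submitters' processing notes name HISAT, StringTie, Bowtie2 and the WBcel235 build, with no versions or roles. For each gene the authors deposited an expected count, an estimate that need not be whole where reads match several genes, and a TPM value. Neither the counting tool nor the strandedness was stated there.

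Expected counts were rounded to whole numbers. Genes were kept by edgeR's filterByExpr, libraries were scaled by TMM, and all 33 libraries were fitted together with diet as the only term by edgeR 4.0.16 (glmQLFit and glmQLFTest) in R 4.3.3. Each mutant diet was tested against BW25113, all against the same 3 control libraries. P-values were adjusted by Benjamini-Hochberg over all genes tested, with a threshold of 0.05. The procedure was tested on simulated data. Summed CPM, TPM means and ranges are descriptions. Ratios for genes with 3 or fewer control counts carry exact 95% intervals that cover counting error only.

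Alternatives were DESeq2 1.42.0, other scalings, no filter, a replicate block, each comparison's 6 libraries alone, and leaving out each library. Leaving purH replicate 1 out of every comparison was added after seeing the data. The deviations of same-numbered replicates had correlations over 0.1 in all 3 pairs (0.311 to 0.389) only for yghZ with BW25113. There 0 of all genes passed at an adjusted p under 0.05 in edgeR's test, with or without the block.

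The members, marker lists and tests were chosen with earlier results of these data known. Genes named were the 3 most abundant of each family by TPM, fer-1, every gene that passed, the largest and smallest torY changes of each family, spe genes with a known role, and, from the other sperm genes, those that passed and the 3 most abundant; values of 2 spe genes are not reported here, though counts and sums include them, and other names were added after their values were seen. The yjgU samples carry that name in their titles and yigU in their treatment label. Gene positions come from the Ensembl release 115 annotation of WBcel235.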

Additional observations from a re-analysis of the deposited data

How the results depend on the processing

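Shares in parentheses are those of all genes passing in the same fit. In torY, 11 of 41 sperm genes passed as reported, 26 of 41 by DESeq2 (23.2%) and 2 of 41 with library totals only (5.60%). The number was 6 of 42 with no low-count filter (9.16%) and 20 of 41 with a replicate block (18.2%). It was 27 of 32 in a fit of the 6 libraries alone (29.5%). When 1 library was left out it ran from 0 to 25 of 41 (0% to 19.6%). In yccU, 0 of 41 as reported, the counts were 13 of 41 by DESeq2 (12.5%) and 1 of 41 with median-of-ratios scaling (2.67%). They were 8 of 41 with the block (7.95%) and 27 of 33 for the 6 libraries alone (13.0%). Without 1 library they ran from 0 to 11 of 41 (0% to 14.5%). In yjgU they were 14 of 30 for the 6 libraries alone (4.44%) and 0 of 41 with the block (0%). In the test over 11 diets, 2 of 41 passed as reported (465 of 14696 genes). The number was 9 by DESeq2 (2345 of all genes), 0 with library totals only (105 of all genes) and 4 with the block (716 of all genes). Without 1 library it was 0 to 5 (157 to 995 of all genes). Outside yghZ the correlations between same-numbered replicates were not over 0.1 in all 3 pairs, so the blocked values are given here alone. They were still positive in all 3 pairs in yccU (0.042 to 0.238) and in yjgU (0.051 to 0.247). The 6-library fits tested fewer genes and estimated the spread from those libraries. The low-count filter was rerun on them, so a gene low in BW25113 could enter through its level in the mutant diet. With crl or ycdC, 22 sperm genes were tested, against 32 with torY, 33 with yccU and 30 with yjgU. The counts passing in these fits therefore partly follow the filter. The cause of the other differences was not tested. Median log2 fold changes kept their sign in torY (2.51 to 3.03) and yccU (2.35 to 2.90) without any 1 library, while in crl the median ran from -1.09 to 0.79.

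Library totals alone shifted the median log2 fold change of all genes to between 0.03 in yjgU and 0.90 in purH (0.28 in torY and in yccU). With them the log2 ratio to BW25113 of the msp sum in yghZ was 1.65, that of the ssp sum was -0.25 in ycdC and 0.23 in yghZ, and that of the spe and fer-1 sum was 0.71 in iaaA, 0.66 in purH, 0.38 in ycdC, 0.90 in ycgJ and 0.74 in yghZ. Signs of the single genes described turned only without 1 library: spe-5 in torY (-0.04 without BW25113 replicate 1, -0.11 and -0.20 without torY replicates 2 and 3; range to 0.48), ssp-37 in torY (-0.07 without BW25113 replicate 3, -0.13 without torY replicate 1; range to 0.33) and ssp-37 in yccU (-0.084 without BW25113 replicate 3, -0.029 without yccU replicate 2; range to 0.37). Genes near 0 counts in BW25113, such as spe-42, spe-49, spe-27 and spe-29, are limited by depth.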
